A study of Mus musculus with 12 samples.

Results

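The 6 miRNAs described here are the 5p and 3p arms of 3 mouse hairpins, miR-877, miR-744 and miR-671, among 1929 mature miRNAs counted in 12 mouse livers. The hairpins were picked because the ratio of their 5p to their 3p arm differed between the study's 2 groups, so the differences between groups given below describe what was picked and are not tests of it. All livers came from C57BL/6 mice injected intraperitoneally with carbon tetrachloride (CCl4), a toxin used to produce hepatic fibrosis. The water group (6 libraries) received double distilled water into the stomach each day, and the PZH group (6 libraries) received PZH by the same route (Pien Tze Huang, a medicine of traditional Chinese use). No uninjured mice are among the samples used here, the labels give no age, and they do not say that each numbered sample came from its own mouse, so p-values measure the spread between these libraries.

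A miRNA hairpin is cut by Drosha and then by Dicer into a short duplex, and Argonaute keeps one strand of it, the guide, while the other is mostly degraded. The strand from the 5′ side of the hairpin is named 5p and that from the 3′ side 3p. Which strand is kept depends on the base at its 5′ end and on how firmly each end of the duplex is paired, and since the arms have different seeds, a change of balance between them changes which messages can be bound. The seed is the stretch from base 2 to base 8 that pairs with target messages. A mirtron is a short intron that forms the hairpin itself once it has been spliced out, without Drosha.

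The mature sequences are shown because the arms of each hairpin differ in composition and in seed. They come from RefSeq (GRCm38.p6), where all 6 names were matched (the prefix mmu- marks mouse and is left out below), and are printed 5′ to 3′ with the seed in capitals.
mmu-miR-877-5p: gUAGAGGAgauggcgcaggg
mmu-miR-877-3p: uGUCCUCUucucccuccuccca
mmu-miR-744-5p: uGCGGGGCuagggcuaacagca
mmu-miR-744-3p: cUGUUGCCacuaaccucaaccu
mmu-miR-671-5p: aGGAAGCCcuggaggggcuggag
mmu-miR-671-3p: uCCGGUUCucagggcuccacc

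No 2 of the 6 shared a seed, and 0 other miRNAs of the table with a RefSeq sequence had the seed of any of them. The longest run of bases that a member shared with any other mature miRNA in the table was 10 nt (miR-671-5p with miR-3473h-5p, for example), so that none of the 6 has a near-identical copy among those sequences.

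The hairpins are shown next with both arms in capitals, because their places in the host genes differ.
miR-877: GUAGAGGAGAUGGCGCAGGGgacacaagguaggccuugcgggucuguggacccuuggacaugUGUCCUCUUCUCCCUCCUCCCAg
miR-744: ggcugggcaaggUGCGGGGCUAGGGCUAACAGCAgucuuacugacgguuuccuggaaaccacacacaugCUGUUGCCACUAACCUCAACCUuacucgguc
miR-671: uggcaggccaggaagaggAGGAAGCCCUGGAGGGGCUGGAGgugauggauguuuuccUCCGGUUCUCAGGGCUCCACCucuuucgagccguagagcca

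The miR-877 hairpin lies at chr17:35960730-35960814 on the minus strand, in an intron of Abcf1, which encodes an ATP-binding protein of translation initiation. In the GENCODE M21 annotation of GRCm38 this intron spans the same 85 bases as the hairpin, from its GU to its AG, which is the structure of a mirtron. The 5p arm begins at the first base of the intron, and the 3p arm ends 1 base before its last. The miR-744 hairpin, at chr11:65734733-65734832 on the minus strand, lies in an intron of 15588 bases of Map2k4, which encodes a kinase that activates the JNK pathway. The miR-671 hairpin, at chr5:24592114-24592211 on the plus strand, lies within a coding exon of Chpf2, an enzyme of chondroitin synthesis, with all 98 bases inside the exon and on the same strand. Whether reads were counted by strand is not given in the sources used here, and it was not tested whether fragments of these transcripts were counted as miRNA.

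Library totals ranged from 4961913 to 20211784 counts. The 3 hepatocyte miRNAs checked (miR-122-5p, miR-192-5p and miR-194-5p) together held 192087 to 221809 CPM (counts per 1000000, after TMM scaling of library sizes) with water and 174825 to 228796 CPM with PZH, and 0 of the 3 were called different by edgeR. Of the 3 leukocyte miRNAs the sum was 1936 to 2842 and 1552 to 2395 CPM, and the endothelial miR-126a-3p stood at 9127 to 11073 and 6878 to 9010 CPM. The 2 erythroid miRNAs summed to 2945 to 4743 and 2429 to 4582 CPM. Pancreas (3 miRNAs), muscle (3) and neural (2) miRNAs summed to at most 27.9, 89.2 and 5.23 CPM in any library, and both the pancreas and the muscle maximum were in water replicate 2. None of these 17 markers was at 0 in all libraries. Of these markers, edgeR called 3, beside 21.3% of all 607 miRNAs tested. They were the leukocyte miR-223-3p (log2 fold change -0.58), the endothelial miR-126a-3p (-0.36) and the pancreas miR-375-3p (-1.97), all lower with PZH. The other leukocyte miRNAs, miR-142a-3p (-0.32) and miR-150-5p (0.05), were not called. Only 1 of the pancreas, 2 of the muscle and 1 of the neural miRNAs had enough counts to be tested. The part of other cells in the values below was not tested, and in whole liver a change in the number of cells of a type cannot be told apart from a change in RNA per cell.

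In each of the 3 hairpins the 5p arm was the more abundant one in both groups. Arm ratios are given as log2 of 5p counts over 3p counts with 1 added to each, which needs no correction for library size. A small RNA read spans the whole mature miRNA, so counts were not divided by length, although ligation during library preparation favours some ends over others. In the water group the mean log2 ratio was 1.50 ± 0.32 for miR-877, 2.68 ± 0.18 for miR-744 and 2.51 ± 0.37 for miR-671 (SD, n = 6), which are 5p excesses of 2.83, 6.41 and 5.69-fold. The 5p arm exceeded the 3p arm in 6 of 6 water libraries for each hairpin. The same held in 6 of 6 PZH libraries, with 5p excesses of 5.59, 9.22 and 8.83-fold. These values are a description, with no test, since the hairpins were picked on the ratios of the same libraries.

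Among the 137 hairpins with a mean of at least 20 counts in both arms, the 5p arm was the larger in the water group in 77. The median size of the log2 ratio over these hairpins was 4.06, so that the 3 hairpins were less one-sided than most. A larger ratio in either direction was seen in 114 of the 137 hairpins compared with miR-877, in 92 compared with miR-744 and in 94 compared with miR-671.

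With PZH the balance of all 3 hairpins stood further toward the 5p arm. For the mirtron miR-877 the 5p to 3p ratio was 1.86 at the lowest, 2.99 at the median and 3.50 at the highest with water, against 3.58, 5.28 and 10.1 with PZH. The groups did not overlap, but the lowest PZH library, replicate 5, lay close to the highest water library, replicate 3. The ratio was 1.98-fold higher with PZH (change of log2 ratio 0.98, SE 0.23), and the 5p share of both arms went from 74.0% ± 4.55 to 84.7% ± 4.61 (SD, n = 6).

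For miR-744, whose 5p arm has been reported to lower the fibrosis cytokine TGF-β1, the ratio was 5.61, 6.28 and 8.02 (lowest, median, highest) with water and 6.87, 9.05 and 11.0 with PZH. Of the 6 PZH libraries, 5 were above every water library, with PZH replicate 4 below the highest water library, replicate 2. The ratio was 1.44-fold higher with PZH (change of log2 ratio 0.52, SE 0.13), and the 5p share went from 86.5% ± 1.39 to 90.2% ± 1.62 (SD, n = 6).

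For miR-671, whose 5p arm is known to direct the cutting of the circular RNA Cdr1as, the ratio was 3.80, 6.22 and 7.55 with water and 6.69, 9.12 and 11.3 with PZH. Here 4 of 6 PZH libraries were above every water library, and water replicate 6 was the only water library within the PZH range. The ratio was 1.55-fold higher with PZH (change of log2 ratio 0.63, SE 0.18), and the 5p share went from 84.9% ± 3.42 to 89.8% ± 1.83 (SD, n = 6).

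**Figure D1:**
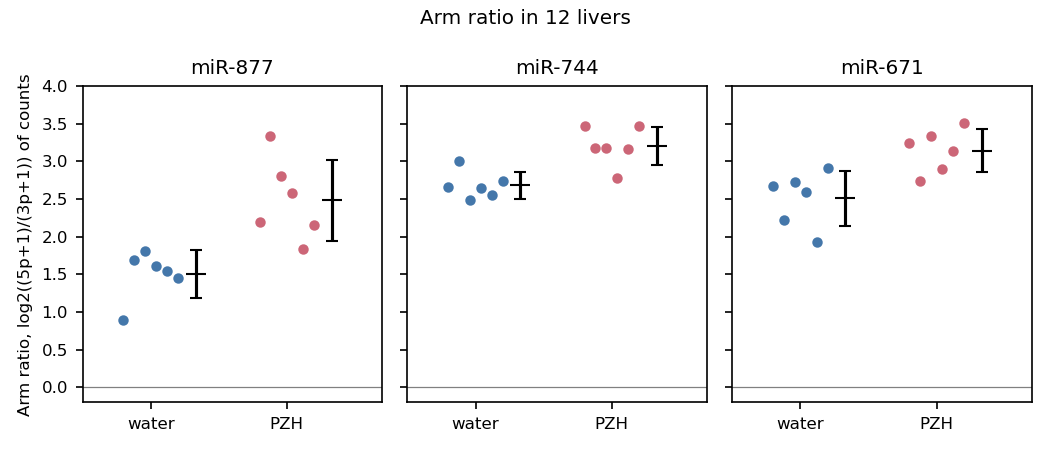
Log2 ratio of 5p to 3p counts (1 added to each) in every library for miR-877, miR-744 and miR-671; points are the 6 water (blue) and 6 PZH (red) libraries in order of replicate number, and bars are mean ± SD. All points lie above 0, where the arms are equal, and the groups are apart for miR-877 (water up to 1.81, PZH from 1.84) and overlap for miR-744 and miR-671.

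By limma, 8.03% of the 137 hairpins (11) had an arm ratio that differed between groups at an adjusted p under 0.05, of which 8 (5.84%) moved toward 5p and 3 (2.19%) toward 3p. All 3 hairpins were among the 8, a count that the way they were picked fixes and that supports nothing further. Groups did not overlap in 2.19% of the 137 hairpins (3), of which miR-877 was 1. With each of the 12 libraries left out in turn, between 3 and 14 hairpins were called. The call of miR-877 ended without water replicate 1 or 4, that of miR-744 without water replicate 1, 3, 4 or 5 or PZH replicate 1, 5 or 6, and that of miR-671 in all but 3 of the 12 omissions, those of water replicate 6 and PZH replicates 2 and 4. The size of the shift varied less, from 0.82 to 1.11 for miR-877, 0.47 to 0.61 for miR-744 and 0.52 to 0.72 for miR-671 on the log2 scale.

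By size of shift toward 5p, miR-877 ranked 3 of 137, behind miR-434 (change of log2 ratio 1.15) and miR-193a (1.11) and ahead of miR-21a (0.78) and let-7e (0.75). At rank 8, miR-671 stood between miR-185 (0.64, not called) and miR-7669 (0.63, SE 0.61, not called), with miR-187 (0.68, not called) above them. At rank 10, miR-744 was followed by miR-223 (0.51) and miR-29c (0.47), neither of them called. The 3 hairpins are therefore not the largest shifts in the table, and hairpins of like size failed the test. Over the other 134 hairpins the median change of log2 ratio was 0.06, with 81 above 0.

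**Figure D2:**
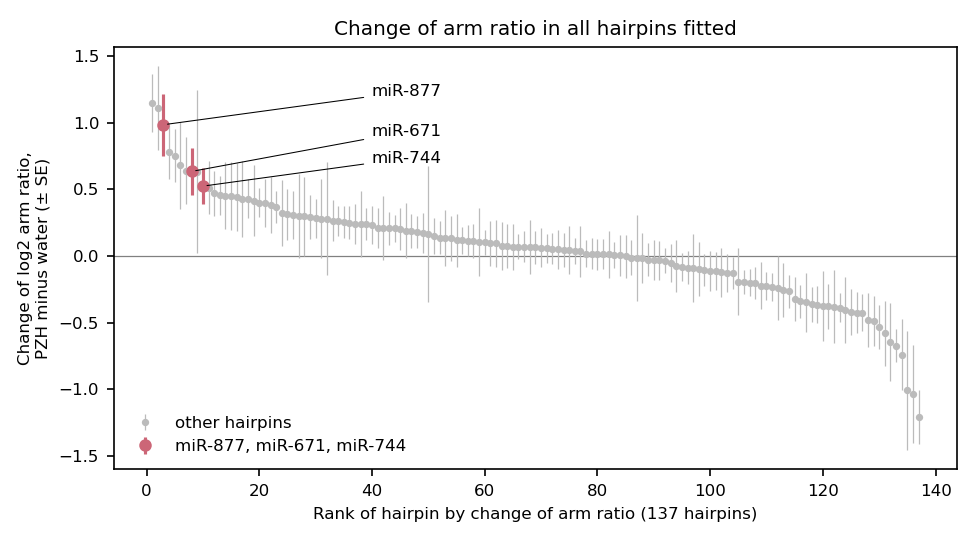
Change of log2 arm ratio, PZH minus water, with its SE (bars) for the 137 hairpins fitted, ordered by the change; miR-877, miR-671 and miR-744 are in red and all others in grey. The 3 hairpins sit at ranks 3, 8 and 10 at the 5p end of the order, among others of similar size.

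The arms contributed differently to the shift. At the level of single arms, edgeR called 21.3% of the 607 miRNAs that passed the filter on low counts, 9.88% as higher with PZH. All 6 members passed the filter, and 1, miR-671-5p, was called, as higher; nothing is read from that count, since the members were picked on this contrast. The levels of miR-671-5p were 54.9, 71.5 and 104 CPM (lowest, median, highest) with water and 95.8, 113 and 144 CPM with PZH. Of the PZH libraries, 5 of 6 were above every water library, and water replicate 3 lay within the PZH range. The change was 1.60-fold (log2 fold change 0.67, SE 0.15).

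The partner miR-671-3p was measured at 10.4, 13.0 and 15.7 CPM with water and at 11.2, 12.5 and 16.6 CPM with PZH. The groups overlapped over nearly their whole ranges (log2 fold change 0.04, SE 0.15), and the sign of this value turned without water replicate 6 (-0.003) or PZH replicate 2 (-0.0059). In miR-671 nearly all of the difference in the ratio thus lay in the 5p arm, and the sum of both arms went from 87.4 ± 17.7 to 132 ± 19.7 CPM (SD, n = 6).

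In miR-877 and miR-744 the differences of the arms had opposite signs, with the 5p arm higher and the 3p arm lower with PZH. The level of miR-877-5p was 8.21, 13.8 and 15.7 CPM with water and 12.4, 17.9 and 20.8 CPM with PZH. Here 4 of 6 PZH libraries were above every water library, while PZH replicate 5, the lowest, lay below the water median (log2 fold change 0.42, SE 0.18). The level of miR-877-3p was 3.64, 4.40 and 4.99 CPM with water and 1.97, 3.25 and 4.22 CPM with PZH. Of the PZH libraries, 5 of 6 were below every water library, with PZH replicate 6 within the water range (log2 fold change -0.54, SE 0.22). The sum of both arms was 17.2 ± 3.02 and 20.2 ± 3.33 CPM (SD, n = 6). As a fold of mean CPM it differed less than either arm, at 1.17 against 1.34 for 5p and 0.69 for 3p.

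The level of miR-744-5p was 75.6, 81.6 and 86.1 CPM with water and 88.2, 94.5 and 98.7 CPM with PZH. All PZH libraries were above all water libraries, as in 5.11% of the 607 miRNAs tested, yet the difference was small (log2 fold change 0.21, SE 0.08). The main edgeR fit did not call miR-744-5p. Of 7 other settings, 3 called it: RLE scaling (0.24), DESeq2 (0.25) and the filter of 10 CPM in 6 libraries (0.29). Those settings called 21.6%, 23.7% and 27.3% of all miRNAs tested. Under the filter of 10 CPM the level differences of the other members kept were also higher than in the main fit. It was not called with total-count scaling, no filter, limma-voom or a block for the replicate number. None of the 12 omissions of a library called it either. The spread of miR-744-5p was narrow, 81.2 ± 4.35 against 93.6 ± 3.71 CPM (SD, n = 6). The level of miR-744-3p was 9.59, 12.8 and 14.8 CPM with water and 7.85, 10.5 and 13.1 CPM with PZH. The groups overlapped, with 4 of 6 libraries of each group inside the range of the other (log2 fold change -0.31, SE 0.15). The sum of both miR-744 arms went from 93.9 ± 5.49 to 104 ± 4.43 CPM (SD, n = 6).

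**Figure D3:**
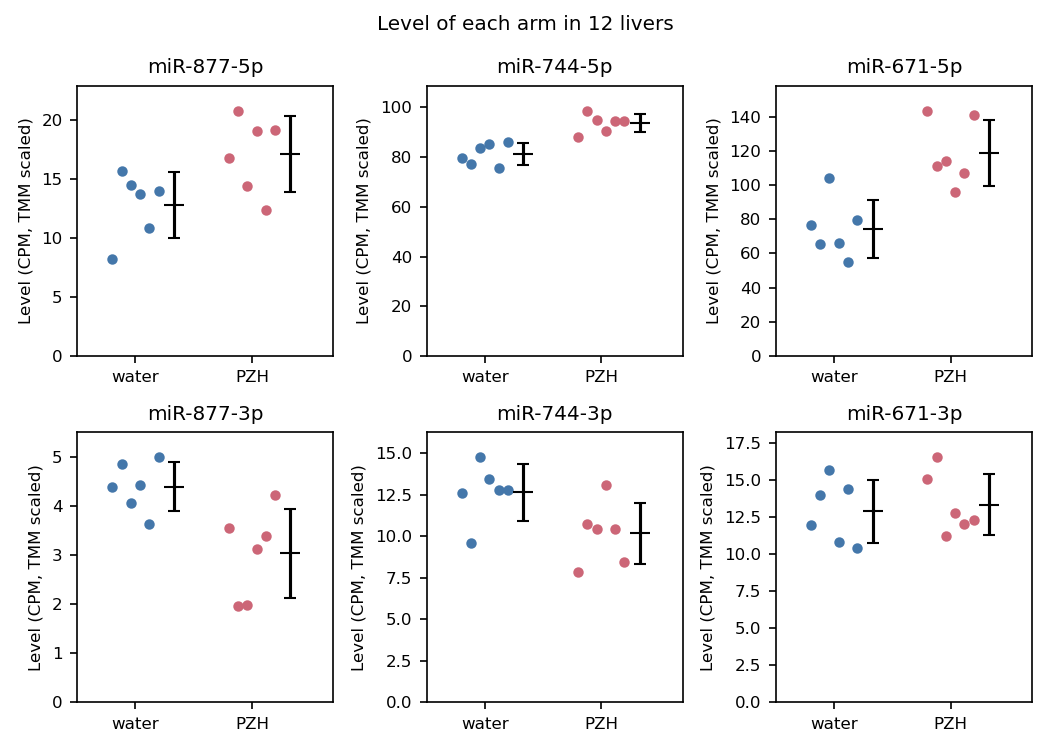
Level of each arm in CPM after TMM scaling, from 0, with the 5p arms above and the 3p arms below; points are the 6 water (blue) and 6 PZH (red) libraries in order of replicate number, and bars are mean ± SD. The 5p arms of miR-744 and miR-671 and, less clearly, of miR-877 stand higher with PZH, the 3p arms of miR-877 and miR-744 lower, and miR-671-3p at 12.9 and 13.3 CPM on average.

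The 3p arms had the fewer counts. Raw counts of miR-877-3p were 25, 40.5 and 93 with water and 17, 26.5 and 35 with PZH (lowest, median, highest), the fewest of the 6 members. Counting error alone gives the log2 ratio of miR-877 an SE of 0.29 in the median library and 0.37 in PZH replicate 2, the library with the highest ratio. The spread between libraries was 0.32 with water and 0.54 with PZH. The median counting error, taken over all 12 libraries, was close to the first and below the second. It was not summarized by group, and miR-877-3p had fewer counts with PZH. For miR-744 the median counting SE was 0.15, against SDs of 0.18 and 0.25. For miR-671 it was 0.14, against SDs of 0.37 and 0.28. No molecular identifiers are mentioned in the sources used here, so these errors cover counting only.

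Within a group, the level of an arm said little about that of its partner at this number of libraries. Pearson's r of the 5p with the 3p level (log2 CPM) in the water group was 0.38 for miR-877, 0.55 for miR-744 and 0.14 for miR-671 (Spearman's rho 0.43, 0.60 and -0.09; exact permutation p of r 0.451, 0.271 and 0.814; n = 6). In the PZH group r was -0.04, 0.25 and 0.18 (rho -0.14, 0.37 and 0.09; exact permutation p 0.933, 0.642 and 0.746; n = 6). The arm ratios of the 3 hairpins did not track one another detectably either. For miR-877 with miR-744, miR-877 with miR-671 and miR-744 with miR-671, r was 0.01, -0.22 and -0.15 with water (rho -0.31, -0.14 and 0.03; exact permutation p 0.978, 0.683 and 0.782; n = 6). The same pairs gave -0.30, -0.59 and 0.63 with PZH (rho -0.03, -0.43 and 0.43; exact permutation p 0.562, 0.221 and 0.172; n = 6). Over these 12 relations the adjusted p was at least 0.977 for r and 1.0 for rho. Without the 2 libraries farthest from the median on the first measure, r lay between -0.76 and 0.97, so none of these relations is estimated well.

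Each member with a mean of at least 10 CPM was compared with the other miRNAs at that level over the 12 libraries, after centring on group means. The levels most like miR-877-5p were those of miR-30c-2-3p (Pearson's r = 0.78), let-7g-5p (0.76) and miR-148b-3p (0.75). For miR-744-5p they were miR-350-5p (0.86), miR-700-3p (0.73) and miR-125b-2-3p (0.70), and for miR-744-3p miR-122b-5p (0.82), miR-203b-5p (0.81) and miR-378c (0.80). For miR-671-5p they were miR-423-3p (0.87), miR-29c-5p (0.82) and miR-148a-5p (0.77), and for miR-671-3p miR-7025-5p (0.85), miR-3470b (0.82) and miR-30e-3p (0.77). The partner miR-877-3p was below 10 CPM and was not compared. For the other 2 hairpins the partner arm was not among the 3 closest. By this likeness miR-744-3p ranked 39 for miR-744-5p (0.39), and miR-671-3p ranked 138 for miR-671-5p (0.15). These correlations are the highest of many, over libraries that share their depth scaling, and are given as a description.

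In all 3 hairpins the 5p arm is rich in G and the 3p arm rich in C, a feature that the choice of hairpins did not use. The G content is 55.0% in miR-877-5p, 52.2% in miR-671-5p and 40.9% in miR-744-5p, above 99.2%, 98.8% and 91.1% of the 514 tested miRNAs with a RefSeq sequence. The 3p arms hold 4.55%, 23.8% and 9.09% G for miR-877, miR-671 and miR-744, and 54.5%, 42.9% and 40.9% C, the last above 99.2%, 94.6% and 92.0% of those miRNAs. By the difference in G content between the arms, miR-877 ranked 1 of the 113 fitted hairpins with both sequences. With the same difference as miR-98 and miR-382, miR-744 shared rank 6, and miR-671 ranked 10. The first base is G in miR-877-5p, U in miR-744-5p and A in miR-671-5p, against U, C and U in the 3p arms. Argonaute is known to favour U or A at this position, and of the tested miRNAs 42.4% begin with U, 26.7% with A and 10.1% with G.

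Across the other 110 hairpins, a higher G content of the 5p arm relative to the 3p arm went weakly with a change of the ratio toward 5p with PZH (Pearson's r = 0.23, Spearman's rho = 0.24). This correlation is across hairpins that share the same 12 libraries and are not independent replicates, and it is a description. Some hairpins with a difference in G content like that of the 3 had values below 0. Examples were miR-664 (38.3 percentage points more G in 5p, change of log2 ratio -0.10, SE 0.20) and miR-23a (31.0 points, -0.24, SE 0.24). Others had values above 0, such as let-7b (40.9 points, 0.37, SE 0.12) and miR-98 (31.8 points, 0.40, SE 0.18). None of these was called, and all were chosen after their values were seen.

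**Figure D4:**
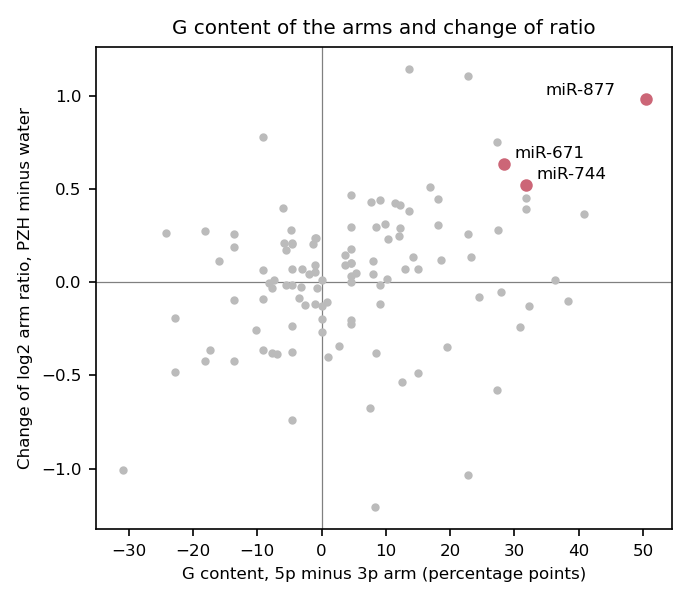
G content of the 5p arm minus that of the 3p arm, in percentage points, against the change of log2 arm ratio (PZH minus water) for 113 hairpins; miR-877, miR-671 and miR-744 are in red and the other 110 in grey. The 3 hairpins lie at the right, at 50.5, 28.4 and 31.8 points, and the grey points scatter widely around a weak upward relation (r = 0.23).

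A pair of lists set these hairpins beside others of their kind. The list of miRNAs made without Drosha held the arms of the mirtrons miR-877, miR-1224 and miR-702 and the capped hairpins miR-320 and miR-484. Of its 9 members 4 passed the filter on low counts, namely both arms of miR-877, miR-320-3p and miR-484, and 0 were called by edgeR, where 21.3% of all 607 were (0 also by DESeq2 and by limma-voom). At an unadjusted p under 0.05 there were 3 of the 4, beside 196 of the 607, but both arms of miR-877 were picked on this contrast. Without them 2 members were tested, 1 of them, miR-484, with an unadjusted p under 0.05. The median log2 fold change was 0.15 with and 0.15 without miR-877, beside -0.03 for all miRNAs tested. With a filter of 10 CPM in 6 libraries, miR-484 (0.27) was called and miR-320-3p was not, beside 94 of 344 miRNAs (27.3%), and so was the picked miR-877-5p (0.51). In the water and PZH groups miR-484 stood at 616 ± 64.3 and 698 ± 48.6 CPM, and miR-320-3p at 256 ± 38.0 and 277 ± 23.7 CPM (SD, n = 6). The mirtron arms miR-1224-5p, miR-1224-3p, miR-702-5p and miR-702-3p had at most 34, 12, 5 and 15 counts in any library, and none of them passed the filter.

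The list of hairpins known to give usable RNA from both arms had 15 names, of which 14 were fitted. Of these 1 shifted toward 5p, miR-17 of the growth-promoting miR-17-92 cluster (change of log2 ratio 0.40, SE 0.11, limma adjusted p = 0.0419), and 0 toward 3p, beside 5.84% and 2.19% of all 137 hairpins. The call of miR-17 did not hold in 9 of the 12 omissions of a library. The median change of log2 ratio was 0.06 over the 14 and 0.06 over all 137 hairpins. With no call were miR-339 (-0.36), miR-30a (-0.23) and miR-30e (-0.26), the next by p. The other 10 hairpins of this list had changes of log2 ratio between 0.01 and 0.21, with no call.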

How the data were processed

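The deposited table holds raw counts per mature miRNA, 1 column per library, with no normalization. Per the submitters' processing notes, cutadapt, FastQC, BWA, DESeq2 and the build GRCm38 were used; how reads were counted, with or without strand or with several matches, is not given in the sources used here. No cell held 1, and every member count was 17 or more.

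All 607 miRNAs kept by edgeR's default filter were fitted in edgeR 4.0.16 (R 4.3.3, quasi-likelihood test, TMM scaling), and log2 arm ratios (pseudocount 1) of 137 hairpins with limma 3.58.1. Calls used a Benjamini-Hochberg adjusted p under 0.05. SEs of edgeR folds come from its test statistic, and log2 CPM used a prior count of 2. The fits were also run on simulated data with known changes, and the outcome is not given here. A sign-flip test of the 5p excess within each group was computed and is not used, since the same ratios chose the hairpins.

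The members and both lists were chosen with earlier results of these data known. Besides the members, the text names the nearest hairpins in rank, the 3 most similar miRNAs and the 4 list members with the smallest p; any other is said to be chosen after its values were seen, or gives a marker or list value.

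Alternatives were RLE and total-count scaling, 2 other filters, DESeq2 1.42.0, limma-voom, a replicate block, other pseudocounts and count minimums, an interaction fit and omission of each library. Thinning to 4961913 counts was added after seeing the data.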

Additional observations from a re-analysis of the deposited data

How the results depend on the processing

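The shift of the arm ratio toward 5p kept its sign in all alternatives that gave a value. With 1 library left out it was 0.82 to 1.11 for miR-877, 0.47 to 0.61 for miR-744 and 0.52 to 0.72 for miR-671 on the log2 scale, and in the other alternatives 0.90 to 0.997, 0.50 to 0.53 and 0.58 to 0.65. A minimum of 100 counts per arm, and thinning with the minimum of 20, left miR-877 out. The number of hairpins called was 5 of 160 with a minimum of 10 counts per arm, without miR-744 and miR-671, and 19 of 80 with a minimum of 100. It lay between 3 and 14 with 1 library left out, and that of called miRNAs between 99 and 139. Under a replicate block 114 miRNAs and 6 hairpins were called, and the call of miR-744 ended. No source says that the numbers pair livers. Same-numbered libraries correlated at -0.15 to 0.08 after centring on group means, and 1 of the 6 water libraries, replicate 1, was most like the PZH library with its number. The level difference of miR-671-3p turned to -0.003 without water replicate 6 and to -0.0059 without PZH replicate 2. That of miR-744-5p was 0.29 with a filter of 10 CPM in 6 libraries. The median of the list made without Drosha was -0.0687 without a filter on low counts, where all 9 members entered, and 0.10 to 0.19 with 1 library left out. With 1 library left out, the 5p excess within the water group stayed at 1.44 to 1.62 for miR-877, 2.62 to 2.72 for miR-744 and 2.43 to 2.63 for miR-671 on the log2 scale, and within the PZH group at 2.31 to 2.61, 3.15 to 3.29 and 3.07 to 3.22. Of 30 recomputed likeness values under total-count scaling or a prior count of 0.5, 27 stayed among the 3 highest of their member. Scaling by RLE or total counts moved the median of all miRNAs by less than 0.05. The filter of 10 CPM in 6 libraries, after which scaling was computed anew, raised the level difference of every member kept. It went from 0.42 to 0.51 for miR-877-5p, 0.67 to 0.76 for miR-671-5p and 0.04 to 0.13 for miR-671-3p. For miR-744-5p it went from 0.21 to 0.29, and for miR-744-3p from -0.31 to -0.22. The calls of miR-744-5p and miR-877-5p under this filter came with that common rise. Counts of miR-877-3p went down to 17, where counting gives the log2 ratio an SE of 0.37.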

Other observations

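Among the 110 other hairpins with both sequences, 60 had a 5p arm richer in G than the 3p arm, and 40 of these had a higher 5p to 3p ratio with PZH (median change of log2 ratio 0.10). Of the 46 with the richer 3p arm, 22 had a higher ratio (median -0.01). For C content the relation ran the other way (Pearson's r = -0.21, Spearman's rho = -0.19 across the 110 hairpins). At the level of single miRNAs it was weaker. Over the 514 tested miRNAs with a sequence, G content and log2 fold change had r = 0.09 and rho = 0.13. Hairpins and miRNAs share the 12 libraries and are not replicates, so these values describe this table. They were computed with the hairpins' shifts already known.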
